A study of Homo sapiens with 10 samples.

Results

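The 10 genes described here encode the DNA methyltransferases DNMT1, DNMT3A and DNMT3B, the TET dioxygenases TET1, TET2 and TET3, and the polycomb repressive complex 2 (PRC2) subunits EZH1, EZH2, SUZ12 and EED. They were taken as a fixed list of symbols, matched to Ensembl identifiers through GENCODE release 29, and all 10 were found among the 58174 gene identifiers used. All 10 also passed the filter on low counts, which 13743 genes passed in all. RNA came from SNU-387, an established cell line from a grade IV/V pleomorphic hepatocellular carcinoma, made to express either wild-type YES (5 libraries) or YES T348I (5 libraries) in a stable manner. YES is a tyrosine kinase of the SRC family, T348I alters its gatekeeper residue in the drug-binding pocket, and every library came from cells given 100 nM dasatinib, an inhibitor of SRC-family and ABL kinases. The values therefore compare 2 genotypes under the drug, and untreated cells were not analysed here. The labels name no clone, construct promoter or separate cultures, so the spread behind each p-value is that between these libraries and may be technical. Sample titles come in 2 styles, called long-title (3 libraries of each genotype) and short-title (2 of each) here. Title set entered the model as a term, though the labels do not say what sets the styles apart.

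DNA methylation is placed on cytosines of CpG dinucleotides. DNMT1 copies the marks to the new strand behind the replication fork, DNMT3A and DNMT3B set marks on unmethylated DNA, and TET enzymes oxidise 5-methylcytosine, which starts its removal. PRC2 methylates lysine 27 of histone H3 (H3K27me3) through either EZH2 or EZH1, and needs SUZ12 as scaffold and EED as reader of the mark it makes. In many tissues EZH2 is abundant in dividing cells and EZH1 in resting cells, and EZH2 and DNMT1 are known targets of the E2F factors that drive S phase.

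The libraries held 10168307 to 16939029 reads in genes. Chi-square per degree of freedom over genes was 1.58 to 2.04 between T348I long-title libraries, near counting noise. Among wild-type libraries of that title set it was 12.8 for libraries 2 and 3, 34.6 for 1 and 3 and 48.6 for 1 and 2. In the short-title pairs it was 26.1 (wild type) and 7.37 (T348I). The edgeR tests were therefore also run with those T348I libraries summed into 1, and without wild-type long-title libraries 1 and 2, the pair that differed most. The latter choice was made after the data were seen, and library 2 was no farther from library 3 than the short-title wild-type libraries were from each other. It left library 3 as the only wild-type long-title library, beside the 3 T348I long-title ones that were near counting noise. Without wild-type long-title libraries 1 and 2 edgeR called 2304 genes higher and 2055 lower, beside 1884 and 1825 with all libraries. YES1 itself was counted at 303 ± 102 CPM (counts scaled by TMM and library size; mean and SD over 5 libraries) with wild-type YES and at 453 ± 86.4 CPM with T348I, endogenous gene and construct together, so its level does not check the substitution. The difference in YES1 was 0.59 ± 0.19 on the log2 scale (edgeR adjusted p = 0.0326), a call that ended in 9 of 23 alternatives. Among these were the summed T348I libraries (0.109), the fit with no title set term (0.126) and leaving out any short-title library other than T348I 2 (0.0783 to 0.112) or any T348I long-title library (0.0522 to 0.0637). Of 12 hepatocyte markers only SERPINA1 and AFP passed the low-count filter. ALB had a mean of 0.0344 CPM with wild-type YES and 0.0195 CPM with T348I, so the liver label rests on the line's origin. The 7 mesenchymal markers summed to 10585 to 33160 CPM with wild-type YES and 7025 to 10815 CPM with T348I, with FN1 and PDGFRB of the 7 called lower. After summing, none of the 7 was called, and without wild-type long-title libraries 1 and 2, 3 were higher (VIM, THY1 and CDH2) and 3 lower (FN1, PDGFRB and COL1A2). The 7 blood and endothelial markers summed to 9.78 to 59.3 and 5.54 to 8.60 CPM, with CD14 and PECAM1, the 2 that could be tested, called lower and CD3E at 0 in every library. Neither CD14 nor PECAM1 was called after summing, and only PECAM1 was with no title set term. The part of these differences in the results below was not tested.

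Promoter sequences are shown for the 4 genes whose RefSeq window held an E2F-type word, because the genes of opposite response, EZH2 and EZH1, are both among them. Each window runs from 250 bases before to 50 bases after a RefSeq transcript start, read 5′ to 3′ on the gene's strand, on GRCh38.p14. The words searched were TTTCGCGC, TTTGGCGC, TTTCCCGC and TTTGCCGC and their reverse complements, printed in capitals. The windows are chr19:10194904-10195203 (minus strand) for DNMT1, chr7:148884242-148884541 (minus) for EZH2, chr17:42744991-42745290 (minus) for EZH1 and chr17:31936757-31937056 (plus) for SUZ12.
DNMT1: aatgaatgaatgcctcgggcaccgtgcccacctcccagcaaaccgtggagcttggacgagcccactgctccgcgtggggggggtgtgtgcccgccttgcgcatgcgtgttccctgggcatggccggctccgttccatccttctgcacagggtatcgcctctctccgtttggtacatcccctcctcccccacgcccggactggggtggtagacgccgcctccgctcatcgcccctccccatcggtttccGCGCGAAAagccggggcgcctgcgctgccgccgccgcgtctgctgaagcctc
EZH2: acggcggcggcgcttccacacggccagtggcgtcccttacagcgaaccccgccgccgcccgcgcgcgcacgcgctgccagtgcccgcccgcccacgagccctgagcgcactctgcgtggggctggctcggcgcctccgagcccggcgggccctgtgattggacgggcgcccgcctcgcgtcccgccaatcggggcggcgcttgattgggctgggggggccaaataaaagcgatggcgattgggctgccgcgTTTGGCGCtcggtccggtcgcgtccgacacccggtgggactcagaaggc
EZH1: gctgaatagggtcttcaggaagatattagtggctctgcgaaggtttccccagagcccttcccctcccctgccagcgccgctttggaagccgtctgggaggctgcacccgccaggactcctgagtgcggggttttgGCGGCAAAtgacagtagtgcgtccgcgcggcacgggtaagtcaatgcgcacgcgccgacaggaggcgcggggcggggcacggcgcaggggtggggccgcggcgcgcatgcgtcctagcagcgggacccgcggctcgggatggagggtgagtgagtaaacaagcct
SUZ12: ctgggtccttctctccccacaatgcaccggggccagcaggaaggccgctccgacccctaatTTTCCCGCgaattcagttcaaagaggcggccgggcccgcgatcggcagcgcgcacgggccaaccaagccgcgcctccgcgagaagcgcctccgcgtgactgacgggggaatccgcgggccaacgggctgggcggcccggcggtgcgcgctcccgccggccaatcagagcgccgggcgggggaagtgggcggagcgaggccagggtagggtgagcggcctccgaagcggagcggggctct
Counted from the transcript start, whose first base is 1, the word began at position -2 in DNMT1, 2 in EZH2, -115 in EZH1 and -189 in SUZ12. The DNMT1 start used by RefSeq lies 36333 bases inside the GENCODE gene, and the other 3 starts lie within 30 bases of theirs. Of all 35116 windows of this length 3.31% held such a word, and 3.99% of the 27305 genes had a window that did. Of the 14 replication genes with a window, from a list described below, 10 held one. A further EZH2 window, chr7:148883436-148883735, held none. The other 6 of the 10 genes had no match in their windows, and a gene can have several windows (20 for the 10 genes). CpG dinucleotides numbered 46 in the EZH2 window and 30 each in those of DNMT1 and EZH1, against a median of 14 over all windows, and 3 in that of DNMT3B. The start of the only DNMT3B window lies 17467 bases inside the GENCODE gene, so the sequence at the GENCODE start of DNMT3B was not examined. A match describes the letters in a window and was not tested as a binding site.

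T348I libraries held more DNMT1, EZH2 and EED transcript and less DNMT3A, TET1, TET2 and EZH1 transcript than wild-type libraries. A gene was called at a Benjamini-Hochberg adjusted p under 0.05 over all genes tested in edgeR's quasi-likelihood test. By that rule 3 of the 10 genes were higher and 4 lower. The calls were not equally firm: EED lost its call in 18 of 23 alternatives and TET1 in 8, as given below. Over all genes tested 27.0% were called, 13.7% higher and 13.3% lower, so calls were common in these data. The median log2 fold change of the 10 genes was -0.0034, beside -0.030 over all genes tested. The values of the 2 genotypes did not overlap over all libraries in EZH2 (higher; 6.94% of all genes tested) and DNMT3A (lower; 4.15%). Within both title sets at once, the genotypes did not overlap in 7 of the 10 genes (25.2% of all genes tested), the same 7 that were called.

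**Figure D1:**
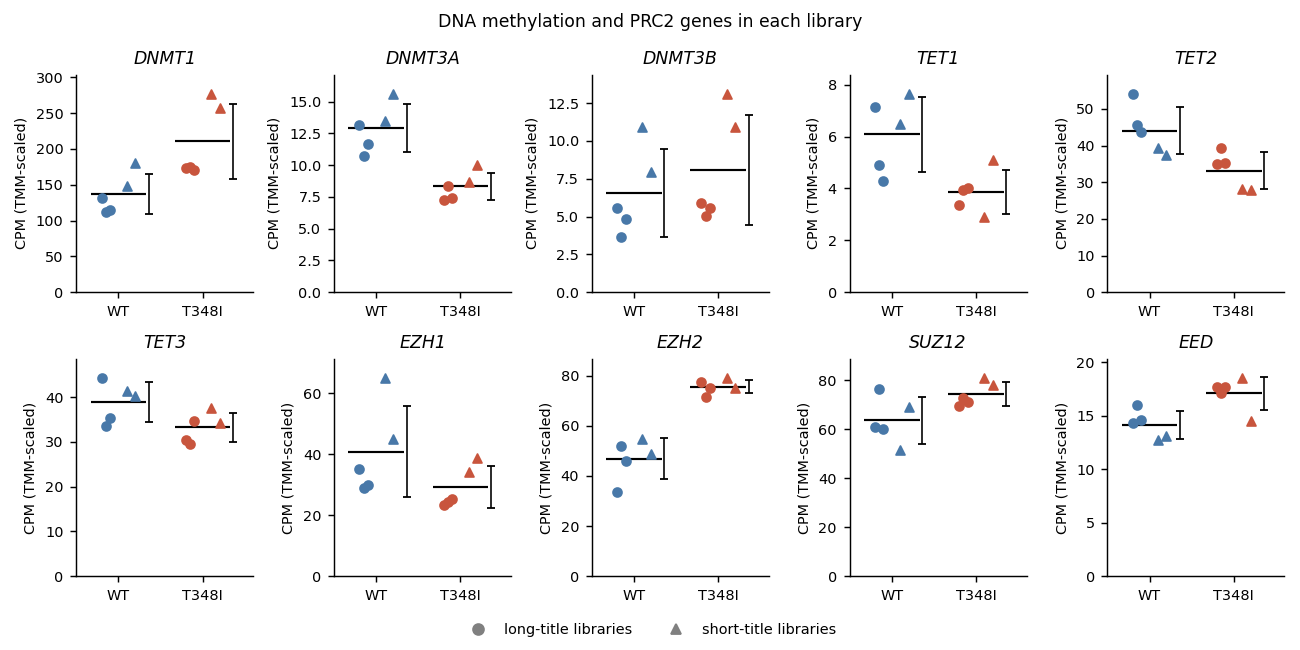
Scaled counts in CPM (y axis from 0) of the 10 genes in each wild-type (blue) and T348I (red) library. Circles are long-title and triangles short-title libraries, the horizontal line is the mean and the bar beside it ± SD over 5 libraries. The T348I points of EZH2 lie between 71.6 and 78.9 CPM and all wild-type points at or below 54.5 CPM.

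DNMT1, the maintenance methyltransferase, is ENSG00000130816.14 on chromosome 19 from 10133345 to 10231286, minus strand (GENCODE 29, GRCh38, as for the genes below). It was counted at 132, 112 and 115 CPM in wild-type long-title libraries 1 to 3 and at 148 and 181 CPM in the short-title ones. The T348I libraries held 173, 175 and 171 CPM in the long-title set and 276 and 257 CPM in the short-title set. Within each title set every T348I library was above every wild-type library, and across sets the ranges met, short-title libraries being higher in both genotypes. DNMT1 rose by 0.60 ± 0.08 on the log2 scale (± SE here and below; edgeR adjusted p = 0.000227), 1.51-fold. Fitted by set, the rise was 0.52 ± 0.09 for long titles (adjusted p = 0.0153) and 0.71 ± 0.14 for short titles (adjusted p = 0.00813). In those fits 8.94% and 10.6% of the genes tested were called. Without the title set term the adjusted p of DNMT1 was 0.0561. Its exons share 83 of 9796 bases with S1PR2 on the same strand, so reads there can belong to either gene.

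The de novo enzymes went apart. DNMT3A (ENSG00000119772.16, chromosome 2 from 25227855 to 25342590, minus strand) was at 13.2, 10.7 and 11.7 CPM in the wild-type long-title libraries and at 13.5 and 15.6 CPM in the short-title ones. In T348I it was at 7.29, 8.32 and 7.42 CPM and at 8.65 and 9.97 CPM, so that each T348I library lay below each wild-type library. It fell by 0.63 ± 0.11 on the log2 scale (edgeR adjusted p = 0.000969), to 0.645 of the wild-type level. The change was -0.63 for long titles (adjusted p = 0.0329) and -0.63 for short titles (adjusted p = 0.0530). DNMT3B (ENSG00000088305.18, chromosome 20 from 32762385 to 32809356, plus strand) ranged from 3.64 to 10.9 CPM with wild-type YES and from 5.05 to 13.1 CPM with T348I. Its log2 fold change of 0.28 ± 0.15 did not pass the test (edgeR adjusted p = 0.171; 95% interval -0.033 to 0.59), an interval that runs from a slight fall to a rise. DNMT3B differed more by title set than by genotype: short-title libraries were higher by 1.06 ± 0.14 (adjusted p = 9.42e-05). DNMT3L, a cofactor of the de novo enzymes without activity of its own, had too few counts to be tested.

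TET transcripts were lower in T348I libraries where they passed the test. TET2 (ENSG00000168769.13, chromosome 4 from 105145875 to 105279816, plus strand) was at 54.0, 45.6 and 43.8 CPM in the wild-type long-title libraries and at 39.5 and 37.6 CPM in the short-title ones. In T348I it was at 35.1, 39.4 and 35.4 CPM and at 28.2 and 28.0 CPM. The ranges met across title sets and were apart within each. TET2 fell by 0.41 ± 0.08 (edgeR adjusted p = 0.00235), with -0.39 for long titles (adjusted p = 0.0666) and -0.44 for short titles (adjusted p = 0.0524). Its adjusted p was 0.0705 without the title set term.

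TET1 (ENSG00000138336.8, chromosome 10 from 68560656 to 68694482, plus strand), the scarcest of the 10 per kilobase of exon, had 39 to 120 counts per library. It was at 7.13, 4.91 and 4.29 CPM in the wild-type long-title libraries and at 6.47 and 7.63 CPM in the short-title ones. In T348I it was at 3.38, 3.96 and 4.0 CPM and at 2.88 and 5.10 CPM. The T348I values lay below the wild-type ones within each set, and T348I short-title library 2 was above 2 wild-type long-title libraries. The log2 fold change was -0.65 ± 0.19 (edgeR adjusted p = 0.0231), with -0.54 for long titles (adjusted p = 0.176) and -0.79 for short titles (0.104). The call ended after summing the T348I long-title libraries (adjusted p = 0.0948), without the title set term (0.0770), without both wild-type long-title libraries 1 and 2 (0.0539), and without wild-type short-title library 2 (0.0660), T348I long-title library 1 (0.0603) or T348I short-title library 1 (0.0668).

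TET3 (ENSG00000187605.15, chromosome 2 from 73986404 to 74108176, plus strand) ranged from 33.5 to 44.2 CPM with wild-type YES and from 29.5 to 37.5 CPM with T348I. Its value of -0.23 ± 0.09 did not pass over all libraries (edgeR adjusted p = 0.0730) and passed once the wild-type long-title library 2 was left out (-0.27, adjusted p = 0.0306).

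Among the catalytic subunits of PRC2, EZH2 was higher and EZH1 lower in T348I libraries. EZH2 (ENSG00000106462.10, chromosome 7 from 148807383 to 148884321, minus strand) was at 33.5, 51.9 and 45.8 CPM in the wild-type long-title libraries and at 54.5 and 48.7 CPM in the short-title ones. In T348I it was at 77.4, 71.6 and 75.1 CPM and at 78.9 and 75.1 CPM, a narrow band above all wild-type values. EZH2 rose by 0.69 ± 0.10 (edgeR adjusted p = 0.000435), 1.62-fold, with 0.77 for long titles (adjusted p = 0.0196) and 0.59 for short titles (adjusted p = 0.0104). The call held under all 23 alternatives of the fit, with adjusted p from 2.39e-11 to 0.0196. The lowest wild-type value was that of long-title library 1, and without that library the change was 0.60 (adjusted p = 2.92e-05).

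EZH1 (ENSG00000108799.12, chromosome 17 from 42700275 to 42745049, minus strand) was at 35.1, 29 and 29.8 CPM in the wild-type long-title libraries and at 64.9 and 45.1 CPM in the short-title ones. In T348I it was at 23.3, 24.2 and 25.5 CPM and at 34.1 and 38.8 CPM. Short-title libraries were higher in both genotypes (0.70 ± 0.11, adjusted p = 0.000252), and within each set the T348I values were the lower ones. EZH1 fell by 0.46 ± 0.11 (edgeR adjusted p = 0.00769), with -0.37 for long titles (adjusted p = 0.0766) and -0.57 for short titles (adjusted p = 0.0457). Its adjusted p was 0.223 without the title set term.

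The scaffold and reader subunits moved less. EED, which shares 66 of 7016 exon bases with MIR6755 (ENSG00000074266.19, chromosome 11 from 86244544 to 86278813, plus strand) was at 14.3, 16.0 and 14.6 CPM in the wild-type long-title libraries and at 12.7 and 13.1 CPM in the short-title ones. In T348I it was at 17.7, 17.1 and 17.7 CPM and at 18.5 and 14.5 CPM. T348I short-title library 2 lay within the wild-type range. The log2 fold change of 0.28 ± 0.10 was just past the threshold (edgeR adjusted p = 0.0466) and was not called under 18 of the 23 alternatives, among them leaving out any 1 library other than wild-type long-title library 2 or T348I short-title library 2 (highest adjusted p = 0.144, without T348I short-title library 1) and summing the T348I long-title libraries (0.164). SUZ12 (ENSG00000178691.10, chromosome 17 from 31937018 to 32001045, plus strand) ranged from 51.6 to 76.4 CPM with wild-type YES and from 69.4 to 80.8 CPM with T348I. Its log2 fold change of 0.23 ± 0.10 did not pass (edgeR adjusted p = 0.107). Wild-type long-title library 2 held the highest wild-type value, and without it SUZ12 passed (0.31, adjusted p = 0.0136), as it did without libraries 1 and 2 (0.34, adjusted p = 0.0110). The pseudogene copy SUZ12P1 was counted separately, with 908 counts over the 10 libraries against 623 to 1365 for SUZ12 in each. How reads from stretches the copies share were assigned was not examined, so the values of SUZ12 may be uncertain by an amount not measured here.

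**Figure D2:**
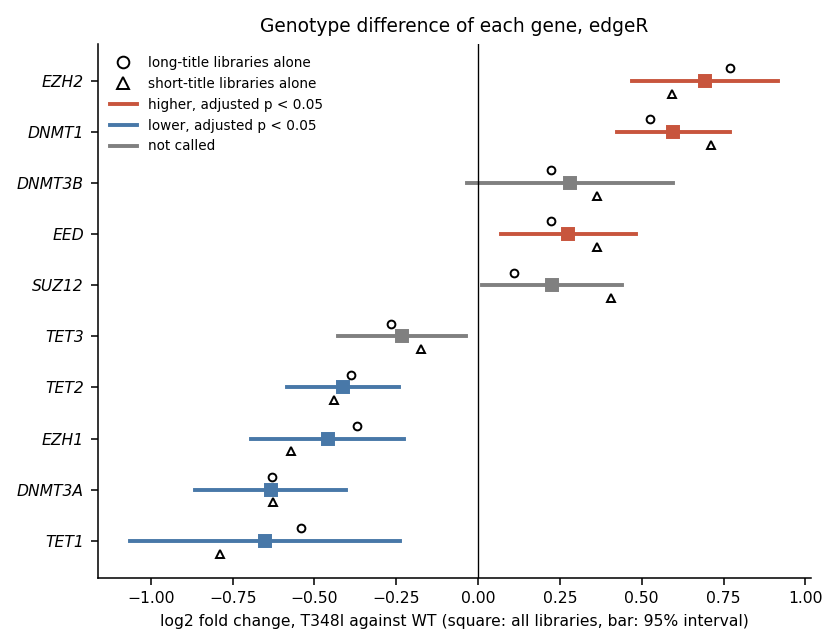
Log2 fold change of T348I against wild type for each of the 10 genes (x axis), with squares for the fit over all 10 libraries and bars for its 95% interval. Circles and triangles give the long-title and short-title libraries fitted alone. Values run from -0.65 for TET1 to 0.69 for EZH2, and the sign is the same in both title sets for all 10 genes.

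All 10 genes had the same sign in both title sets. The genotype by title set interaction, tested in edgeR, gave no call among all genes (0% at an adjusted p under 0.05; 459 genes, 3.34%, at an unadjusted p under 0.05). The lowest unadjusted interaction p among the 10 genes was 0.177, for SUZ12. Title set itself was called in 5 of the 10 genes (43.1% of all genes tested): DNMT1, DNMT3A, DNMT3B and EZH1 were higher and TET2 lower in short-title libraries.

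Transcript levels can be compared between genes only per length, as CPM per kilobase of annotated exon. On that scale DNMT1 was the most abundant in wild-type libraries (14.1 ± 2.85, n = 5), followed by EZH2 (10.4 ± 1.8), SUZ12 (9.72 ± 1.45) and EZH1 (5.84 ± 2.14). TET3 (3.18 ± 0.360), TET2 (2.68 ± 0.389), EED (2.02 ± 0.188), DNMT3B (1.42 ± 0.627) and DNMT3A (1.08 ± 0.155) came next, and TET1 was lowest (0.655 ± 0.154). The ranges of neighbours in this order overlapped, except between EZH1 and TET3 and between DNMT3A and TET1. In T348I libraries the order differed in that EED (2.44 ± 0.218) stood before TET2 (2.02 ± 0.301), with ranges that overlapped. There DNMT1 was at 21.5 ± 5.29 and EZH2 at 16.7 ± 0.605, EZH1 at 4.18 ± 0.987 and DNMT3A at 0.693 ± 0.0902. EZH2 and SUZ12 overlapped in wild-type and not in T348I libraries.

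Ratios within a library leave out any scaling between libraries. The log2 ratio of EZH2 to EZH1 CPM was -0.066, 0.84 and 0.62 in the wild-type long-title libraries and -0.25 and 0.11 in the short-title ones. In T348I libraries it was 1.73, 1.56 and 1.56 and then 1.21 and 0.95, above all wild-type values. The title-set-adjusted difference was 1.15 (T348I minus wild type; exact permutation test within title sets, two-sided p = 0.0167, the smallest that 120 label orders allow; adjusted p = 0.0333 over 4 ratios). Leaving out any 1 library gave 1.01 to 1.25. Within both title sets EZH2 was already higher and EZH1 lower in every T348I library, so the permutation p was fixed beforehand. It adds no support to the single-gene results. The log2 ratio of DNMT3B to DNMT3A was -1.07 ± 0.476 in wild-type and -0.14 ± 0.514 in T348I libraries (difference 0.93, exact permutation p = 0.0167, adjusted p = 0.0333), with ranges that met across title sets.

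**Figure D3:**
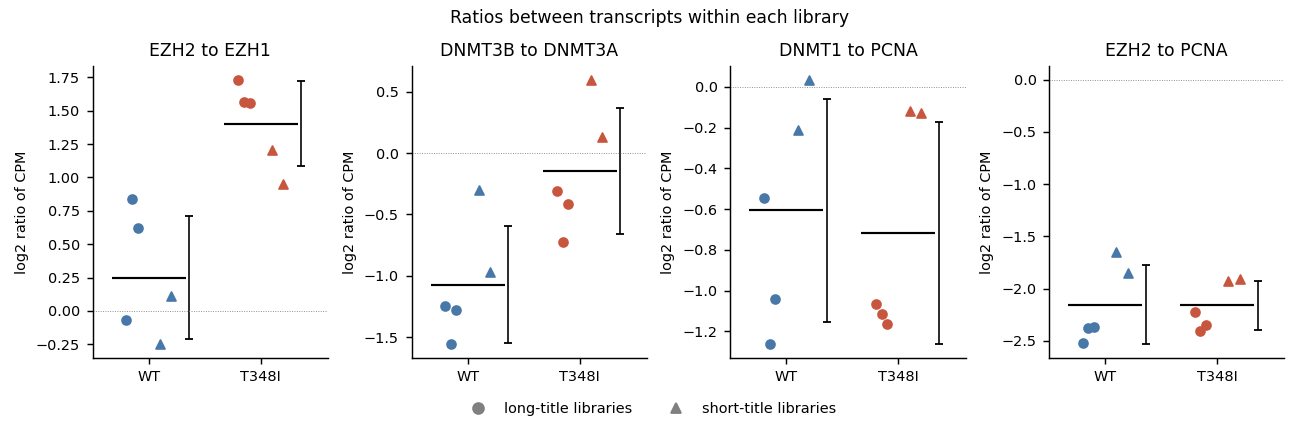
Log2 ratios of scaled CPM between pairs of transcripts (y axis) in each wild-type (blue) and T348I (red) library, with circles for long-title and triangles for short-title libraries, the mean as a line and ± SD as a bar (n = 5). EZH2 to EZH1 runs from -0.25 to 0.84 in wild-type and from 0.95 to 1.73 in T348I libraries. The 2 ratios to PCNA overlap between genotypes.

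DNMT1 and EZH2 rose together with genes of DNA replication. All 16 genes of a replication list rose (edgeR; also 16 with DESeq2 and with limma-voom), by a median of 0.83, and their summed level was 1751 to 2399 CPM with wild-type YES and 3379 to 3664 CPM with T348I. They include thymidylate synthase TYMS (1.07 ± 0.07, adjusted p = 1.16e-05), the ribonucleotide reductase subunit RRM2 (1.13 ± 0.11, adjusted p = 4.77e-05) and the helicase factor CDC45 (1.09 ± 0.11, adjusted p = 4.99e-05). PCNA, the sliding clamp that DNMT1 binds at the fork, rose by 0.71 ± 0.09 (adjusted p = 0.000157). The log2 ratio of DNMT1 to PCNA was -0.61 ± 0.547 in wild-type and -0.72 ± 0.544 in T348I libraries, a difference of -0.11 (exact permutation p = 0.533). It ranged from -0.19 to 0.0047 when 1 library was left out, the latter without wild-type long-title library 1. The ratio of EZH2 to PCNA was -2.16 ± 0.379 and -2.16 ± 0.234, a difference of -0.0053 (exact permutation p = 0.933; -0.047 to 0.050 with 1 library left out). A p that misses the threshold does not show that either ratio is equal between genotypes. More S-phase cells and more transcript per cell cannot be told apart in bulk RNA.

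Of 10 tested partners of the DNA methylation enzymes 4 rose (40%, beside 27.0% of all genes), with a median of 0.20. The 4 were UHRF1, CDCA7, HELLS and PCNA, and PCNA is also on the replication list above. UHRF1, which brings DNMT1 to hemimethylated DNA, rose by 1.06 ± 0.10 (edgeR adjusted p = 4.77e-05), from 30.3 ± 8.13 to 63.7 ± 16.9 CPM. CDCA7, which recruits the chromatin remodeller HELLS, rose by 0.82 ± 0.10 (adjusted p = 0.000163) and HELLS by 0.78 ± 0.10. Without wild-type long-title libraries 1 and 2 the same 4 were called higher and SMUG1, a uracil-DNA glycosylase, lower (-0.30, adjusted p = 0.0157). TDG, the glycosylase that removes oxidised methylcytosine, had a value of -0.038 ± 0.09 (adjusted p = 0.781). Of 10 methyl-CpG readers 2 rose and 1 fell (30%, beside 27.0% of all genes): ZBTB38 (0.39 ± 0.09, adjusted p = 0.00719), MBD2 (0.29, 0.0432) and ZBTB4 (-0.31, 0.0489). Without wild-type long-title libraries 1 and 2 all 3 were called, and so were MBD3 (0.26) and MBD6 (-0.33). The calls of all 3 ended after summing the T348I long-title libraries and without the title set term. MBD2 also lost its call when any 1 library other than wild-type long-title 2 or 3 was left out, and ZBTB4 when any 1 other than wild-type long-title 2, wild-type short-title 1 or T348I short-title 2 was.

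Of the 8 tested accessory subunits of PRC2, 2 were called, both higher (25%, beside 27.0% of all genes), with a list median of 0.082. They were PHF19, which helps PRC2 to chromatin (0.57 ± 0.09, edgeR adjusted p = 0.000417), and the histone chaperone RBBP7 (0.29 ± 0.08, adjusted p = 0.0159). RBBP7 lost its call after summing the T348I long-title libraries (adjusted p = 0.110), and so did both genes without the title set term (PHF19 0.106, RBBP7 0.202). The histone chaperone RBBP4 had a value of 0.14 ± 0.07 (adjusted p = 0.166) and JARID2 -0.26 ± 0.09 (adjusted p = 0.0560). Without wild-type long-title libraries 1 and 2, 5 of the 8 were called: PHF19, RBBP7, RBBP4 (0.20, adjusted p = 0.0341) and MTF2 (0.26, 0.0143) higher and JARID2 lower (-0.34, 0.00191). That fit called more genes in general, 2304 higher and 2055 lower among all genes, beside 1884 and 1825 with all libraries. Of the 22 subunits of PRC1, the complex that ubiquitinates histone H2A, only the corepressor gene BCOR was called (-0.27 ± 0.08, adjusted p = 0.0247), 4.55% of the list. It lost its call in 11 of 23 alternatives, among them the summed libraries (0.163) and leaving out the wild-type libraries long-title 3 or short-title 2, any T348I long-title library or T348I short-title library 1 (adjusted p 0.0516 to 0.0816). At an unadjusted p under 0.05 in edgeR, a threshold that at least 27.0% of all genes tested met, 5 PRC1 genes were higher and 4 lower. Without wild-type long-title libraries 1 and 2, 3 were called higher and 4 lower, BCOR among the latter. These counts stand beside 2304 higher and 2055 lower among all genes in that fit, so calls were common there too.

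Enzymes that oppose polycomb marks or supply substrates went both ways. Of 8 tested opponents 25% were called, beside 27.0% of all genes. NSD2, which methylates lysine 36 of histone H3, rose by 0.78 ± 0.07 (edgeR adjusted p = 4.77e-05), from 139 ± 20.2 to 239 ± 25.1 CPM. KDM6B, which removes H3K27 methylation, fell by 0.58 ± 0.13 (adjusted p = 0.00631; 0.0512 with the T348I long-title libraries summed). Its relative KDM6A had a value of -0.17 ± 0.07 (adjusted p = 0.102). Of 11 tested genes of S-adenosylmethionine and 2-oxoglutarate supply 3 rose and 4 fell (63.6%, beside 27.0% of all genes), with a median of -0.22. The counts were 2 and 1 after summing the T348I long-title libraries, and 2 and 0 with no title set term. AHCY, which clears the product inhibitor of methyltransferases, rose by 0.41 ± 0.07 (adjusted p = 0.00140) and IDH2, which makes 2-oxoglutarate in mitochondria, by 0.54 ± 0.10 (adjusted p = 0.00152). IDH1, the cytosolic relative of IDH2, fell by 0.22 (adjusted p = 0.0437). MAT2B, a regulatory subunit of methionine adenosyltransferase, fell by 0.25 (adjusted p = 0.0148), and NNMT, which methylates nicotinamide, by 0.30 (adjusted p = 0.0253). Both lost their calls after summing the T348I long-title libraries (0.142 and 0.240). MAT2B also did so without T348I short-title library 1 (0.0530). NNMT also did so without both wild-type long-title libraries 1 and 2 (0.0725), or without wild-type long-title library 3 (0.05005), the wild-type short-title library 2 (0.0532), any T348I long-title library (0.0677 to 0.0823) or T348I short-title library 1 (0.0797).

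Genes that these marks hold silent in many cell types were mostly too scarce to test. Of 27 germline and imprinted genes 6 passed the filter, among them PEG10 at 90.2 ± 40.5 CPM with wild-type YES and 95.6 ± 27.6 CPM with T348I. None of those 6 was called by edgeR, by DESeq2 or by limma-voom, and 0 had an unadjusted p under 0.05 over all libraries. Without wild-type long-title libraries 1 and 2 the germline gene MAGEA6, which has near-identical relatives, was called higher in edgeR (1.07 ± 0.36, adjusted p = 0.0364). Of 24 genes widely marked by H3K27me3 outside their lineage 7 passed the filter, and 2 of these fell (28.6%, near the 27.0% of all genes called in either direction). TBX3, a T-box factor, went from 34.5 ± 7.39 to 21.8 ± 2.5 CPM (-0.66 ± 0.13, edgeR adjusted p = 0.00220). CDKN1C, a CDK inhibitor and imprinted gene, went from 6.04 ± 3.19 to 3.19 ± 2.45 CPM (-1.04 ± 0.26, adjusted p = 0.00967; 0.0753 with the T348I long-title libraries summed, 0.308 with no title set term). Without wild-type long-title libraries 1 and 2 both were called lower and GATA6, an endoderm factor, higher (0.48 ± 0.10, adjusted p = 0.00389). Neither methylation nor H3K27me3 was measured in these libraries.

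Across the 10 libraries, after each title set was centred on its mean, the protein-coding genes most like EZH2 in log2 CPM were TEX30 (Pearson r = 0.994), CIP2A (0.993) and RAD51AP1 (0.991). For DNMT1 they were ERLIN1 (0.991), LRRC42 (0.987) and BZW2 (0.986). For DNMT3A they were PBXIP1 (0.991), KIAA0355 (0.991) and DTNA (0.986), and for EZH1 HOOK2 (0.982), RFX3 (0.981) and CFLAR (0.980). These values describe likeness over 10 libraries that share the genotype difference, were the highest of all protein-coding genes tested and carry no test.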

How the data were processed

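Poly(A) RNA was made into stranded libraries, 5 per genotype, per the labels' protocols. The submitters' processing notes name STAR 2.5.1b, Trimmomatic 0.35, CASAVA 1.8.2 and GRCh38 as build; which annotation release served for counting is not given in the sources used here. The deposited tables hold whole-number read counts per gene, not normalized, without strand and on either strand. The opposite-strand counts were used, since 92.2% to 94.5% of stranded gene reads fell there in each library (for the 10 genes, 0.357% to 2.76% lay on the other strand). Lines for unassigned reads, 20.7% to 30.0% of a library, name no gene and were left out, as were 45 pseudoautosomal copies. Identifiers were matched without version numbers to GENCODE release 29 (57836 of 58174).

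Counts were tested with edgeR 4.0.16 in R 4.3.3: filterByExpr (minimum count 10, minimum total 15), TMM scaling and a quasi-likelihood model of title set and genotype. Standard errors were calculated back from the F statistic, and the common biological coefficient of variation came to 13.0%. Values in CPM use the TMM-scaled library sizes. Title sets were also fitted alone, and ratios were tested by exact permutation within title sets. Promoters come from RefSeq (GRCh38.p14), and all 10 genes had a window.

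The genes, lists, tests and alternatives were chosen with earlier results of these data known. All 10 genes are named, and from each related list up to 3 called genes per direction with the lowest p, besides the 3 most alike genes of a called gene. HELLS, TDG, RBBP4, JARID2, IDH1, KDM6A and PEG10 are named for their roles, after their values were seen, as were genes called only without wild-type long-title libraries 1 and 2. Some single-gene results of the lists are not reported here. On simulated counts over 13743 genes with 50 genes set per fold, 16% of 1.5-fold, 78.7% of 2-fold, 96% of 3-fold and 100% of 4-fold changes were recovered, and 5.41% of calls were false. Only 200 genes were changed there, against 3709 called in these data. The Benjamini-Hochberg cut depends on that number, so these shares do not give the recovery in these data. Alternatives tried: DESeq2 1.42.0, limma-voom (limma 3.58.1), scaling by RLE or by library size only, other low-count filters, no title set term, each set alone, a replicate block, unstranded counts, T348I long-title libraries summed, and each library left out. Leaving out wild-type long-title libraries 1 and 2 together was added after the data were seen.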

Additional observations from a re-analysis of the deposited data

How the results depend on the processing

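All 10 genes kept their sign under the 23 alternatives of the fit. DNMT1 and DNMT3A each lost the call under 1 alternative, EZH1 under 2, TET2 under 3, TET1 under 8 and EED under 18. Dropping the title set term left 818 higher and 497 lower genes, with 1 of the 10 genes higher and 1 lower. The long-title libraries alone gave 698 and 499 (1 of the 10 lower), the short-title ones 935 and 599 (1 of the 10 lower), and summing the T348I long-title libraries 899 and 563, in each case with fewer samples; for the title set term the cause was not tested. Leaving out 1 library gave 1342 to 2379 higher and 1108 to 2297 lower genes, and 2 to 4 higher and 3 to 5 lower among the 10; the lowest gene counts came without T348I short-title library 1 (1342 and 1108), and 1204 genes were lower without T348I long-title library 1. The log2 ratio differences ranged over 1.01 to 1.25 (EZH2 to EZH1), 0.81 to 1.02 (DNMT3B to DNMT3A), -0.19 to 0.0047 (DNMT1 to PCNA) and -0.047 to 0.050 (EZH2 to PCNA), the last 2 changing sign. The ratios were not tested with the T348I long-title libraries summed.

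The numbers that titles carry were not treated as pairs, since deviations of same-numbered libraries correlated at -0.025, 0.159 and 0.0745 in the long-title set and 0.217 in the short-title set, and wild-type long-title libraries 1 and 3 correlated best with a library of another number. With a replicate block 1905 genes were higher and 1836 lower, and 2 and 4 of the 10 genes; EED was not called (adjusted p = 0.0728). Depth limits TET1 and DNMT3B most, with as few as 37 counts in a library.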

Other observations

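Among the listed genes, 3 neighbours on chromosome 9 were nearly without counts in all libraries. MTAP, which salvages methionine from methylthioadenosine (chromosome 9 from 21802543 to 21937651), had 1 count over the 10 libraries together. The CDK inhibitor genes CDKN2A (21967753 to 21995301) and CDKN2B (22002903 to 22009363) had 2 and 1. Further genes were looked at after these values were seen. KLHL9, on one side (21329671 to 21335380), had 2 counts, while FOCAD (20658309 to 20995955) had 5956 counts, at 39.7 to 56.4 CPM in each library. MLLT3, farther out, had 1490 counts, and DMRTA1 and ELAVL2 on the other side had 0. No library held more than 1 count of MTAP, CDKN2A, CDKN2B or KLHL9, so no difference between genotypes was detectable in them at this depth.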
